A study of Mus musculus with 8 samples.

Results

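A set of 10 genes of insulin signalling and glucose transport were followed in the epididymal fat pad of mice given prednisolone or vehicle. They are the insulin receptor Insr, the receptor substrates Irs1, Irs2 and Irs3, the phosphoinositide kinase subunit Pik3r1, the kinase Akt2, the glucose transporter Slc2a4, its traffic regulator Tbc1d4, the transcription factor Foxo1 and the receptor inhibitor Grb14. They were listed by name as the adipocyte insulin pathway, all 10 had a probe set carrying 1 gene symbol, and all 10 passed the filter on low signal, among 22180 named and 14786 tested genes. Irs1 and Foxo1 had 2 such probe sets each, and the one with the higher mean over the 8 arrays was used.

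The study measured total RNA of the left fat pad from 8 male C57BL/6 mice on Affymetrix Mouse Gene 2.0 ST arrays, 1 array per mouse. The prednisolone group (labelled GC+, 4 mice) took this synthetic glucocorticoid every day in sweet potato puree, at a dose given in the labels as 40 mg per kg per square metre, for 4 weeks starting at 6 weeks of age. The vehicle group (labelled GC-, 4 mice) took the puree alone. From weaning at 3 weeks both groups were fed the same n-6 rich, high-fat chow, in which fat supplied 45% of the energy, so no mouse on a low-fat diet enters these values, and fat was taken at 10 weeks of age. No insulin injection or fasting state is named in the labels, and the arrays measure transcripts, not the phosphorylation by which this pathway signals.

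Insulin binding activates the tyrosine kinase of its receptor, which phosphorylates the insulin receptor substrates. These dock phosphoinositide 3-kinase, whose lipid product recruits and activates the kinase AKT. In adipocytes AKT inhibits the Rab GTPase activating protein encoded by Tbc1d4, and vesicles holding the transporter GLUT4, the product of Slc2a4, then move to the cell surface and glucose enters. AKT also keeps FOXO1 out of the nucleus. Glucocorticoids are known for opposing insulin action in fat, muscle and liver.

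The promoter sequences shown here are those of the receptor substrate genes, 3 paralogues that gave unlike values in the comparison, and of Tbc1d4, the 1 member whose window held the hexamer bound by the glucocorticoid receptor. Each is the 250 bases before the annotated start, from RefSeq on build GRCm38.p6, 5′ to 3′ on the gene's own strand, which is the minus strand for all 4 genes. Capitals mark the glucocorticoid receptor hexamer (AGAACA or TGTTCT), the FOXO core (GTAAACA or TGTTTAC), the GC box (GGGCGGG or CCCGCCC) and the E-box (CACGTG), searched on both strands.
Irs3, chr5:137645715-137645964: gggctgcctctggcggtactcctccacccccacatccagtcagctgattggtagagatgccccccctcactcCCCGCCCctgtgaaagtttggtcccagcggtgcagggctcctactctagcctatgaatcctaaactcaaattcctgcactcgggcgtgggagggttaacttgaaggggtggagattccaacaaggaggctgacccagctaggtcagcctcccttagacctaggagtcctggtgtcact
Irs1, chr1:82291440-82291689: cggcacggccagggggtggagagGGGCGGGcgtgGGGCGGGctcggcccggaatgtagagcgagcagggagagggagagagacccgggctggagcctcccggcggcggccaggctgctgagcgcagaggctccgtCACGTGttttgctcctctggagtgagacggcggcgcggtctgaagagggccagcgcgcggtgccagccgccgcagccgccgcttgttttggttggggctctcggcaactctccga
Irs2, chr8:11008930-11009179: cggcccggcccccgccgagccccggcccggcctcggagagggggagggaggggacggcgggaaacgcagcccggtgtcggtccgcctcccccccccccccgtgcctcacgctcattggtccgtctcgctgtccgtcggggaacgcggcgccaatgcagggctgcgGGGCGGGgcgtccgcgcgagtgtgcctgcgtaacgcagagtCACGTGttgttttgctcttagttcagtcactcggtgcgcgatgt
Tbc1d4, chr14:101609192-101609441: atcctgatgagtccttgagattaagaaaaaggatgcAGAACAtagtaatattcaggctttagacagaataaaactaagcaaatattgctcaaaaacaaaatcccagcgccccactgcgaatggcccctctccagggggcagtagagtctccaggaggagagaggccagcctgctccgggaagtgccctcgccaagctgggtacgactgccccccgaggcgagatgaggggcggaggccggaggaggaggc

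Promoter windows were found for 8 of the 10 members, in 12 windows because Akt2 and Pik3r1 have several starts. The promoter set used held no window for Insr or Slc2a4. The glucocorticoid receptor hexamer was in 1 of the 12 windows, that of Tbc1d4 with its first base at position -214 from the start, and in 16.1% of the 32851 promoter windows of the same length. The paired element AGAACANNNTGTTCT, which holds this hexamer on both arms, and the FOXO core were in 0 of the 12 windows, against 0.00913% and 3.17% of all windows. The GC box was in 6 of the 12 windows (Irs1, Irs2, Irs3, Pik3r1, Foxo1 and Grb14), against 23.4% of all windows. The E-box was in the Irs1 and Irs2 windows, at positions -115 and -44, and not in that of Irs3, against 6.02% of all windows. These are matches of letters in a short window and not shown to be bound.

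The authors deposited values on the log2 scale after robust multiarray averaging (RMA), and array medians lay between 6.09 and 6.13. Adipocyte markers were bright on every array, with adiponectin (Adipoq) between 12.04 and 12.29 in prednisolone mice and between 11.74 and 12.16 in vehicle mice. The adipocyte score, the mean over 10 tested markers of each value minus its 8-array mean, ran from -0.08 to 0.12 with prednisolone and from -0.30 to 0.17 with vehicle, lowest in vehicle mouse 1. Transcripts of the epididymis, the duct beside this fat pad, differed widely between mice of both groups. The score over 13 tested epididymis markers was 3.66 in prednisolone mouse 2, 3.01 in vehicle mouse 1 and 1.71 in vehicle mouse 4, and at most 0.41 in the other 5 mice. The difference of each named gene was also computed without these 3 mice, and is given where it bears on the value. In a bulk sample, fewer cells of a type and less RNA per cell cannot be told apart.

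Prednisolone was compared with vehicle by limma over all 14786 tested genes. No member passed a Benjamini-Hochberg adjusted p of 0.05, and neither did any other tested gene (percent called 0), with the lowest adjusted p of all genes at 0.713. By unadjusted p under 0.05, 1 of 10 members, Irs3, was called, against 5.69% of all tested genes in either direction. Irs3 was 1 higher call among the members, against 3.37% of all tested genes, and there were 0 lower calls, against 2.33%. The member count was 3 without prednisolone mouse 2 (Irs3, Slc2a4 and Grb14). It was 2 with array quality weights, without vehicle mouse 1 and without vehicle mouse 3. Over all tested genes these settings gave 1098, 1980, 611 and 1268 in that order, against 842 with all mice. In 0 of 10 members were the groups apart, with every mouse of one group above every mouse of the other, which held for 3.2% of all tested genes (1.81% higher and 1.39% lower with prednisolone). A difference of at least 0.35 in favour of prednisolone was found in 3 members, Irs1, Irs3 and Slc2a4, against 3.38% of all tested genes. This cut lies just under the Slc2a4 difference of 0.3526, so the count is a description and not a test of the members. The mean was higher with prednisolone in 5 members and lower in 5, and it was higher in 54.6% of all tested genes. The median difference over the 10 members was 0.01, beside 0.02 over all tested genes. Each difference is prednisolone minus vehicle in log2 units, given ± the standard error from limma. There were n = 4 mice per group unless mice are said to be left out. Values without the 3 mice of high epididymis score rest on prednisolone mice 1, 3 and 4 and vehicle mice 2 and 3. The number of arrays limits the precision of the differences.

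**Figure D1:**
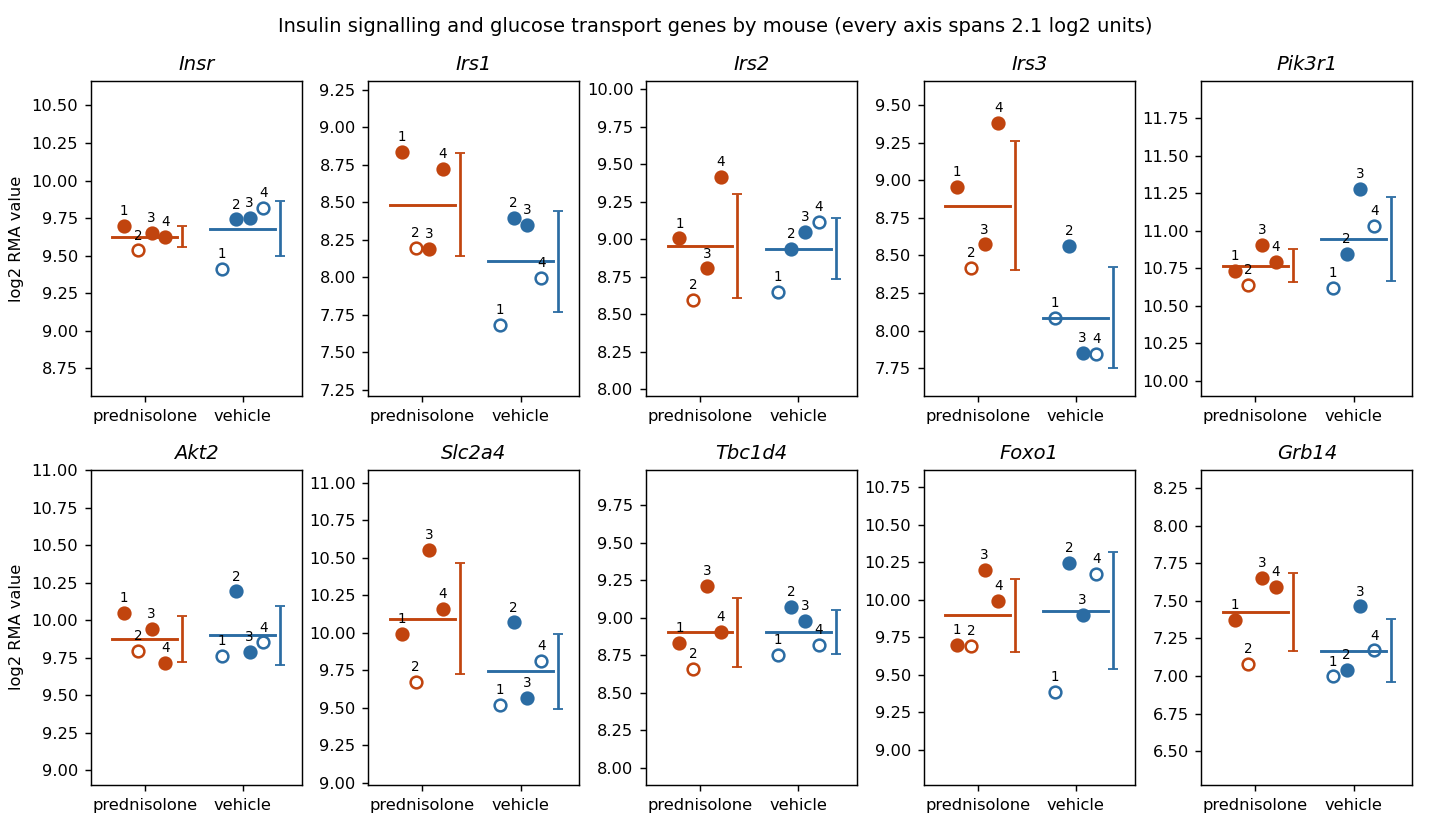
Log2 RMA value of the 10 genes in each mouse, prednisolone left in orange and vehicle right in blue, with replicate numbers beside the points, the group mean as a line and 1 SD as a bar (n = 4). Open circles are the 3 arrays with an epididymis score over 1. The groups overlap in every panel, and Irs3 has the widest gap between means.

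The receptor transcript varied little. Insr read 9.70, 9.53, 9.65 and 9.63 in prednisolone mice 1 to 4, against 9.41, 9.74, 9.75 and 9.82 in vehicle mice 1 to 4. The 4 prednisolone mice lay inside the vehicle range. The means were 9.63 ± 0.07 with prednisolone and 9.68 ± 0.18 with vehicle (SD), a difference of -0.05 ± 0.10 with a limma adjusted p of 0.907. The 95% interval of the difference ran from -0.29 to 0.18. Leaving out vehicle mouse 1 moved it to -0.14, leaving out vehicle mouse 4 moved it to -0.0058, and it was -0.15 with each array centred on its adipocyte markers.

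The 3 receptor substrates did not give like values. Irs3, a substrate found in rodent fat whose human counterpart is a pseudogene, had the largest difference of the 10. It read 8.96, 8.42, 8.57 and 9.38 with prednisolone, against 8.08, 8.56, 7.85 and 7.84 with vehicle. All but 1 of the prednisolone mice lay above all vehicle mice, and prednisolone mouse 2 lay below vehicle mouse 2. The means were 8.83 ± 0.43 and 8.09 ± 0.34 (SD), a difference of 0.75 ± 0.24 or 1.68-fold, with a 95% interval of 1.15 to 2.46-fold and a limma adjusted p of 0.768. A difference at least as large in this direction was found in 0.44% of tested genes. Irs3 was singled out as the largest of the 10, so this share is a description and not a test. With the 3 mice of high epididymis score left out it was 0.76 ± 0.30, and with each array centred on its adipocyte markers 0.65 ± 0.21. Leaving out 1 mouse at a time gave values between 0.56, without prednisolone mouse 4, and 0.91, without vehicle mouse 2.

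Irs1, the substrate most studied in adipocytes, read 8.83, 8.19, 8.19 and 8.72 with prednisolone, against 7.68, 8.40, 8.35 and 8.00 with vehicle. Prednisolone mice 1 and 4 lay above the vehicle range, and the same mice were the 2 highest for Irs3. The difference was 0.38 ± 0.21, or 1.30-fold with a 95% interval of 0.93 to 1.82-fold, and the limma adjusted p was 0.768. The second Irs1 probe set differed by 0.36, but its mean of 5.79 lies below the low-signal cut of 5.82. The Irs1 difference was 0.24 without vehicle mouse 1 and 0.21 without the 3 mice of high epididymis score.

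Irs2, the third substrate, read 9.01, 8.59, 8.81 and 9.41 with prednisolone, against 8.65, 8.93, 9.05 and 9.11 with vehicle. Prednisolone mice held both the lowest and the highest value. The difference was 0.02 ± 0.18, with a 95% interval of -0.40 to 0.44 and a limma adjusted p of 0.9815, and it turned to -0.08 without vehicle mouse 1. The value of Irs3 minus that of Irs2 within each array was -0.05, -0.18, -0.23 and -0.03 in prednisolone mice, against -0.57, -0.37, -1.20 and -1.27 in vehicle mice. In this within-array difference the 4 prednisolone mice lay above the 4 vehicle mice. The pair was chosen after the values were seen, so no test is given. Its group difference of 0.73 mostly repeats the 0.75 of Irs3 alone, for which the groups overlapped. How often other gene pairs keep the groups apart was not counted. Irs3 minus Irs1 overlapped between groups, at 0.12 to 0.66 with prednisolone and -0.50 to 0.40 with vehicle, and so did Irs1 minus Irs2, at -0.69 to -0.17 with prednisolone and -1.12 to -0.54 with vehicle.

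Grb14, an adaptor that binds the activated receptor and inhibits it, read 7.37, 7.08, 7.65 and 7.60 with prednisolone, against 6.997, 7.04, 7.46 and 7.17 with vehicle. Prednisolone mice 3 and 4 lay above the vehicle range and vehicle mice 1 and 2 below the prednisolone range. The difference was 0.26 ± 0.15, with a 95% interval of -0.10 to 0.61 and a limma adjusted p of 0.768, and 0.16 with each array centred on its adipocyte markers.

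Downstream of the substrates, the kinases had small differences. Pik3r1, which encodes regulatory subunits of phosphoinositide 3-kinase, read 10.73, 10.64, 10.91 and 10.79 with prednisolone, against 10.62, 10.85, 11.28 and 11.04 with vehicle. Vehicle mice 3 and 4 were above all prednisolone mice and vehicle mouse 1 was below them. The difference was -0.18 ± 0.14 (95% interval -0.50 to 0.15, limma adjusted p = 0.788). Leaving out vehicle mouse 3 gave -0.07, leaving out vehicle mouse 1 gave -0.29, and the difference was -0.27 with each array centred on its adipocyte markers.

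Akt2, the AKT isoform tied to glucose uptake in fat and muscle, read 10.05, 9.79, 9.94 and 9.71 with prednisolone, against 9.76, 10.19, 9.79 and 9.85 with vehicle. The ranges overlapped, and no prednisolone mouse lay above all vehicle mice. The difference was -0.02 ± 0.12, with a 95% interval of -0.30 to 0.25 and a limma adjusted p of 0.963, and its sign turned to 0.07 without vehicle mouse 2.

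Slc2a4, the insulin-responsive glucose transporter itself, read 9.99, 9.67, 10.55 and 10.16 with prednisolone, against 9.52, 10.07, 9.57 and 9.81 with vehicle. Prednisolone mice 3 and 4 were above all vehicle mice, vehicle mice 1 and 3 were below all prednisolone mice, and the other 4 were interleaved. The means were 10.10 ± 0.37 and 9.74 ± 0.25 (SD), a difference of 0.35 ± 0.20 or 1.28-fold, with a 95% interval of 0.93 to 1.75-fold and a limma adjusted p of 0.768. It was 0.20 without prednisolone mouse 3, the highest mouse, and 0.49 without prednisolone mouse 2, the lowest of its group. Leaving out the 3 mice of high epididymis score gave 0.42 ± 0.22. Slc2a4 is also a gene of skeletal muscle, and 5 of 6 tested muscle markers had a higher mean with prednisolone, against 54.6% of all tested genes. The muscle marker score ran from -0.11 to 0.35 with prednisolone, highest in mouse 4, and from -0.25 to -0.03 with vehicle. Of these markers the actin Acta1 read 8.17, 8.06, 8.75 and 9.98 with prednisolone, against 7.65, 8.09, 7.61 and 7.66 with vehicle, a difference of 0.99. The other 5 tested muscle markers differed by between -0.11 (Actn3) and 0.17 (Pvalb), so most of the score difference was that of Acta1. The myosins Myh1, Myh2 and Myh4 and the light chain Mylpf were too dim to be tested, and the part of muscle RNA in the Slc2a4 value was not tested.

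Tbc1d4, the brake on GLUT4 vesicles that AKT releases, read 8.83, 8.66, 9.21 and 8.90 with prednisolone, against 8.76, 9.07, 8.98 and 8.82 with vehicle. The difference was -0.00 ± 0.13, with a 95% interval of -0.30 to 0.29 and a limma adjusted p of 0.995. Prednisolone mouse 3 was the highest mouse for Tbc1d4, Slc2a4 and Grb14 alike.

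Foxo1, the transcription factor that AKT excludes from the nucleus, read 9.70, 9.69, 10.20 and 9.99 with prednisolone, against 9.38, 10.25, 9.90 and 10.17 with vehicle. The prednisolone mice lay within the vehicle range. The difference was -0.03 ± 0.20 (95% interval -0.50 to 0.44, limma adjusted p = 0.972), and the second Foxo1 probe set, with a mean of 7.53, differed by 0.03. The Foxo1 difference was -0.21 without vehicle mouse 1 and 0.08 without vehicle mouse 2.

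**Figure D2:**
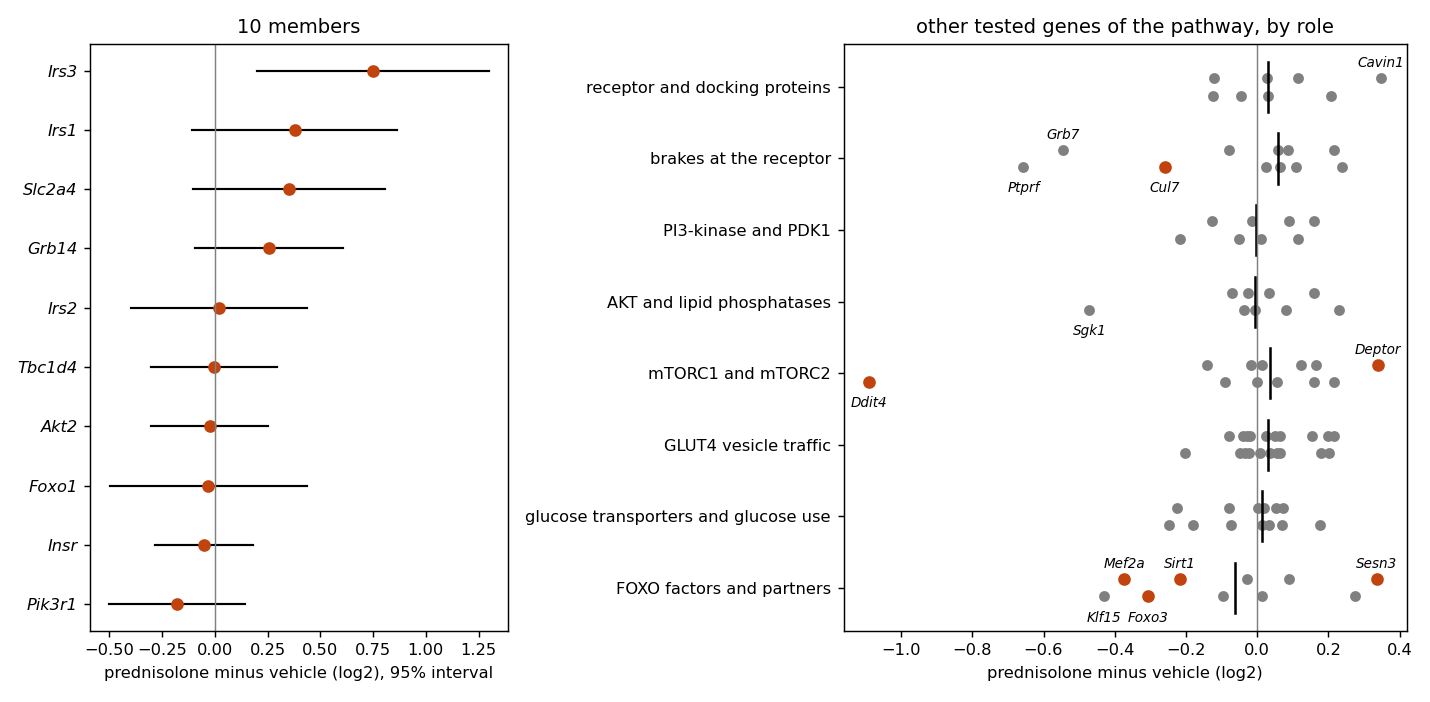
Prednisolone minus vehicle differences on the log2 scale. Left, the 10 members with 95% intervals from limma (n = 4 per group), of which only the Irs3 interval, 0.20 to 1.30, leaves out 0. Right, 91 other tested pathway genes by role, with the list median as a black bar and genes of unadjusted p under 0.05 in orange; Ddit4 lies farthest from 0.

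Much of the spread in these genes was between single mice. Vehicle mouse 1 was the lowest of the 8 arrays in 6 of 10 members (Insr, Irs1, Pik3r1, Slc2a4, Foxo1 and Grb14), and was the lowest in 23.7% of all tested genes. Its median centred member value was -0.30. Prednisolone mouse 2, the other mouse with an epididymis score over 3, was lowest for Irs2 and Tbc1d4 and had a median of -0.22. That mouse was the lowest in 9.32% of all tested genes. The remaining 6 mice had medians between -0.06 and 0.16. Vehicle mouse 1 also had the lowest adipocyte score, and the part of either score in the member values was not tested.

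**Figure D3:**
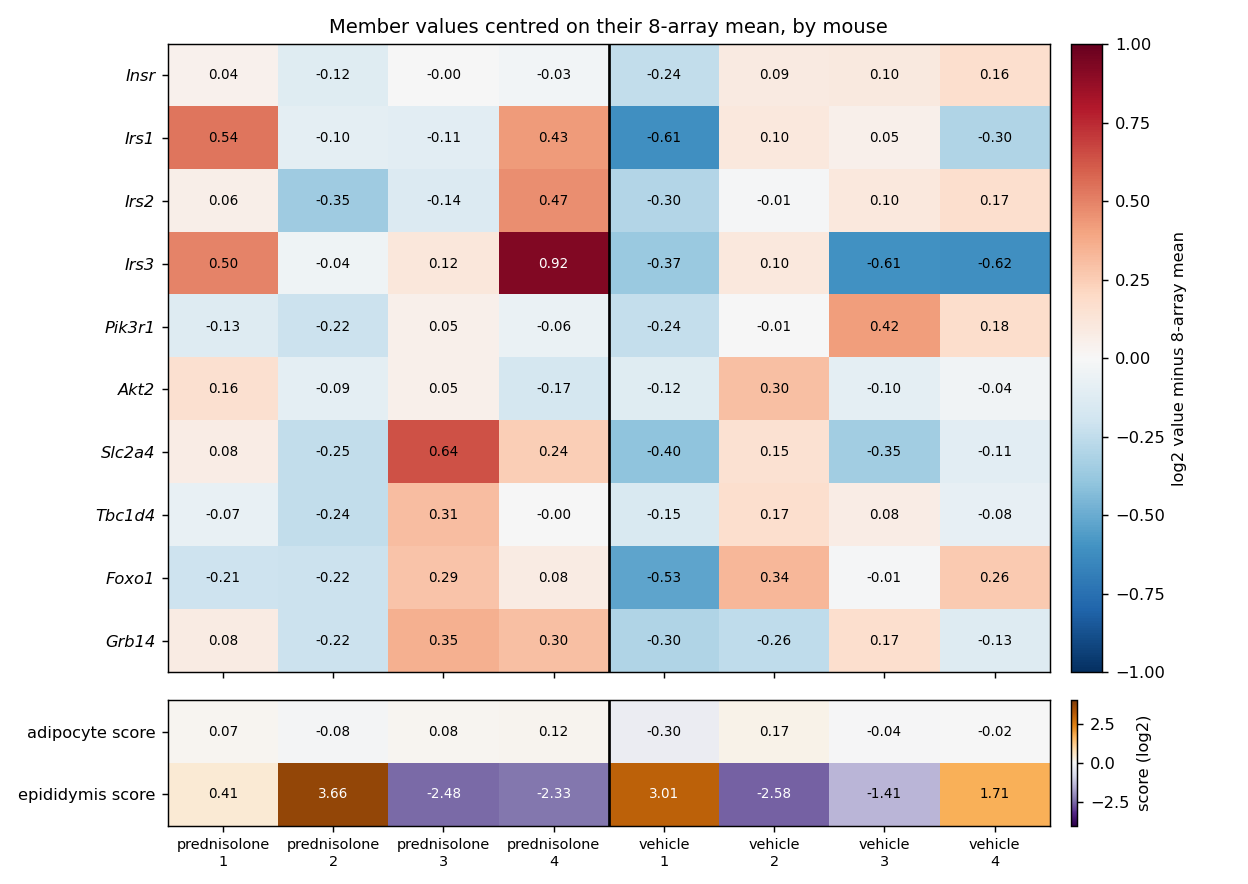
Upper panel, the 10 members (rows) in the 8 mice (columns, prednisolone left of the line), each value minus its 8-array mean on the log2 scale. Lower panel, the adipocyte and epididymis marker scores of the same arrays. Vehicle mouse 1 is below 0 in every row, and the highest value is Irs3 in prednisolone mouse 4 at 0.92.

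The genes whose centred values lay closest to those of Slc2a4 over the 8 arrays were Gsta3, a glutathione S-transferase, Fitm2, a protein of lipid droplet formation, the cation exchanger Slc24a3, the peroxisomal coenzyme A hydrolase Nudt7 and the semaphorin receptor Plxna2. Likeness was the root mean square difference of centred log2 values, which was 0.085 for Gsta3 and 0.11 for Plxna2. All 5 were highest in prednisolone mouse 3, as Slc2a4 was, and their differences lay between 0.23 and 0.28 with limma adjusted p between 0.768 and 0.779. Without that mouse these differences lay between 0.095 (Nudt7) and 0.15 (Slc24a3). Among the other members Tbc1d4 came closest at 0.23, and Irs3 was the farthest at 0.40. The 5 genes were picked for this likeness, so it is a description.

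Other genes of the pathway were taken from 8 lists by role. Of 102 listed genes, 93 had a value and 91 were tested. The mean was higher with prednisolone in 51 and lower in 40, and it was higher in 54.6% of all tested genes. The counts of higher means given below for each list stand beside the same 54.6%. The median difference of the 91 genes was 0.01, and 0 passed the adjusted threshold. At an unadjusted p under 0.05 there were 7 of 91, against 5.69% of all tested genes, and without the 3 mice of high epididymis score there was 1, the lipid kinase subunit Pik3r3, named after its value was seen. Without prednisolone mouse 4 or without vehicle mouse 4 there was also 1, Ddit4. Over all 14786 tested genes these settings gave 497, 534 and 436 in that order, against 842 with all mice. The pathway count was 15 with array quality weights, 11 with the epididymis score as a covariate, 11 without vehicle mouse 2 and 10 without vehicle mouse 3. Over all tested genes the latter settings gave 1980, 1333, 1590 and 1268. Centring each array on its adipocyte markers lowers every difference by 0.10, which takes Socs1 to 0.12, Dok1 to 0.11, Trib1 to 0.13, Stx4a to 0.084 and Myo1c to 0.10, and Pik3r2 to -0.22. The groups were apart in 2 of 91, against 3.2% of all tested genes.

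Receptor and docking genes were higher in mean for 5 of 8 tested. Cavin1, a coat protein of the caveolae in which insulin receptors gather, read 11.14, 10.76, 11.03 and 11.15 with prednisolone, against 10.33, 10.90, 10.99 and 10.47 with vehicle (0.35 ± 0.17), and the docking protein Dok1 differed by 0.21 ± 0.17. The Cavin1 difference was 0.16 without the 3 mice of high epididymis score, and that of Dok1 0.04 without prednisolone mouse 2. Genes that restrain the receptor were higher in mean for 7 of 11. Socs1, a suppressor of cytokine signalling that can also bind insulin receptors, differed by 0.21 ± 0.11, and Cul7, a ubiquitin ligase scaffold that targets IRS1, by -0.26 ± 0.10, or -0.17 without the 3 mice of high score.

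Genes of phosphoinositide 3-kinase and PDK1 split 4 against 4, with all but 1 of 8 differences under 0.2 in size. The exception was Pik3c2a, a class II lipid kinase, at -0.22 ± 0.15, while the regulatory subunit Pik3r2 differed by -0.13 ± 0.10. Without the 3 mice of high score Pik3c2a differed by -0.02, without vehicle mouse 1 by -0.11, and without prednisolone mouse 4 Pik3r2 differed by -0.04. AKT genes and lipid phosphatases were higher for 4 of 9. Sgk1, a kinase related to AKT that glucocorticoids induce in many tissues, read 7.89, 8.26, 8.88 and 8.58 with prednisolone, against 8.42, 8.70, 9.36 and 9.02 with vehicle (-0.47 ± 0.26). The groups overlapped, and the difference was -0.30 without prednisolone mouse 1 and -0.31 without vehicle mouse 3. Trib1, a pseudokinase, differed by 0.23 ± 0.17, by 0.10 without prednisolone mouse 3 and by 0.36 without prednisolone mouse 4.

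The mTOR complexes and their regulators were higher in mean for 7 of 12, and held the lowest difference of the 91 genes. Ddit4, an inhibitor of mTORC1 and a glucocorticoid target in many tissues, read 7.18, 7.98, 8.16 and 8.25 with prednisolone, against 8.56, 8.39, 9.35 and 9.63 with vehicle. All prednisolone mice lay below all vehicle mice, the difference was -1.09 ± 0.33, and the limma adjusted p was 0.768. Deptor, which binds and inhibits mTOR, read 9.81, 9.64, 10.17 and 10.03 with prednisolone, against 9.30, 9.74, 9.72 and 9.53 with vehicle (0.34 ± 0.15), and its second probe set differed by 0.52.

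Genes of GLUT4 vesicle traffic were higher in mean for 12 of 20, and 17 of the 20 differences were under 0.2 in size. The fusion protein gene Stx4a differed by 0.18 ± 0.10 and the motor Myo1c by 0.20 ± 0.12, or by 0.11 and 0.12 without the 3 mice of high score. Sort1, the sorting receptor of these vesicles, differed by -0.05 ± 0.13 in the probe set used and by 0.30 in its second one. Glucose transporters and enzymes of glucose use were higher for 8 of 13. The constitutive transporter Slc2a1 averaged 8.41 ± 0.16 with prednisolone and 8.49 ± 0.20 with vehicle (SD), Slc2a12 differed by -0.22 ± 0.13 and the hexokinase Hk1 by -0.25 ± 0.16. The Slc2a12 difference was -0.12 without prednisolone mouse 3, and that of Hk1 -0.05 without the 3 mice of high epididymis score and -0.12 without vehicle mouse 1. Limma adjusted p was 0.882 for Slc2a1 and 0.768 for Slc2a12 and Hk1.

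FOXO factors and partners were higher in mean for 4 of 10 and lower for 6, with a median of -0.06. In 4 of the 10 genes limma gave an unadjusted p under 0.05, against 5.69% of all tested genes. This count was 0 without prednisolone mouse 4, 0 without vehicle mouse 4, 0 without the 3 mice of high score and 0 with the replicate number as a block, and 1 (Sirt1) without prednisolone mouse 1. Over all 14786 tested genes these settings gave 534, 436, 497, 504 and 652 in that order, against 842 as reported. The FOXO count was 6 with array quality weights, 5 with the epididymis score as a covariate and 5 without vehicle mouse 3. Over all tested genes these settings gave 1980, 1333 and 1268. Foxo3, a FOXO factor that AKT also restrains, read 7.36, 7.59, 7.70 and 7.31 with prednisolone, against 7.78, 7.76, 7.70 and 7.95 with vehicle (-0.31 ± 0.11). Sirt1, a deacetylase of FOXO proteins, read 8.09, 7.93, 8.03 and 7.98 with prednisolone, against 8.18, 8.23, 8.11 and 8.38 with vehicle (-0.22 ± 0.08), with the groups apart, and its difference was -0.14 without the 3 mice of high score. The other 2, named after their values were seen, were Mef2a, a muscle and fat factor that binds the Slc2a4 promoter, at -0.37 ± 0.14, and Sesn3, a sestrin, at 0.34 ± 0.14. Mef2a read 11.34 and 11.21 in vehicle mice 1 and 4, both of high epididymis score, and 10.62 to 10.71 in all prednisolone mice; without the 3 mice of high score its difference was -0.15. Klf15, a glucocorticoid target known to induce Slc2a4, read 7.83, 7.99, 8.37 and 7.65 with prednisolone, against 8.18, 8.73, 7.98 and 8.68 with vehicle (-0.43 ± 0.21). The limma adjusted p was 0.768 for all 5.

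The targets of the drug's receptor were read on the same arrays. Of 15 glucocorticoid response genes, which include Ddit4 and Sgk1, the mean was higher with prednisolone in 5 and lower in 10. Over all tested genes it was higher in 54.6%. Fkbp5, a chaperone of the receptor complex, averaged 8.55 ± 0.62 with prednisolone and 8.95 ± 0.41 with vehicle (SD). The Fkbp5 difference was -0.40 ± 0.32 with a limma adjusted p of 0.791, -0.05 ± 0.41 without the 3 mice of high epididymis score, and -0.11 without prednisolone mouse 1. Macrophages also express insulin pathway genes, and 12 of 12 macrophage markers had a higher mean with prednisolone, against 54.6% of all tested genes. In 0 of the 12 was the unadjusted limma p under 0.05. Macrophage scores ran from -0.14 to 0.52 with prednisolone and from -0.68 to 0.72 with vehicle. Vehicle mice 1 and 4, both of high epididymis score, had the lowest at -0.68 and -0.59, and vehicle mouse 3 the highest. Endothelial markers had a lower mean for 9 of 10, against 6711 of 14786 tested genes. Endothelial scores ran from -0.46 to 0.45 with prednisolone and from -0.48 to 0.41 with vehicle. The part of macrophages and endothelium in the member values was not tested.

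**Figure D4:**
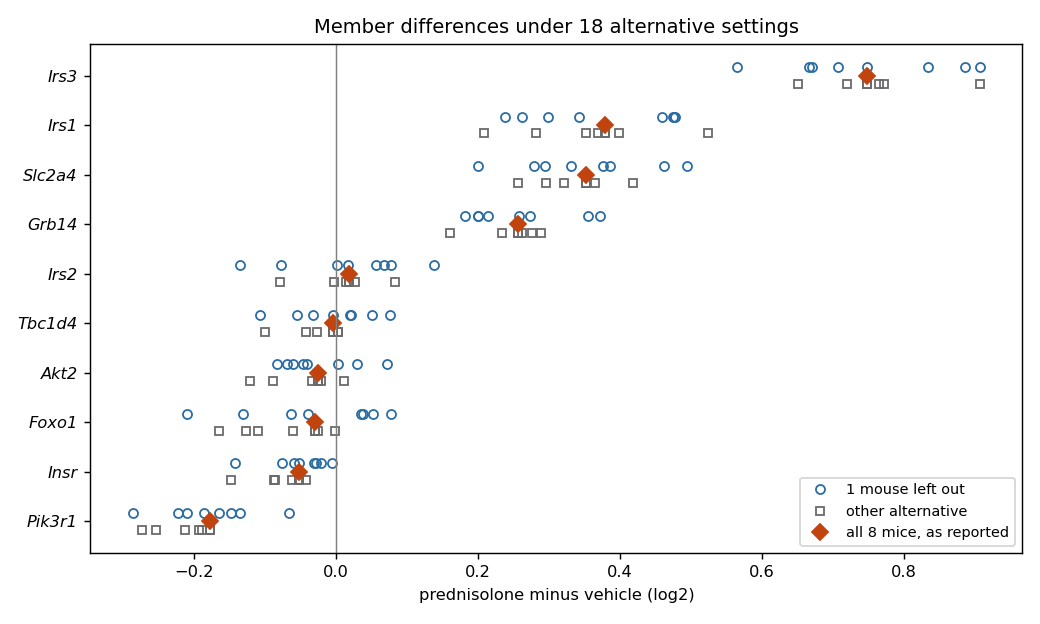
Prednisolone minus vehicle difference (log2) of each member as reported (diamonds), with 1 mouse left out (circles) and under the other 10 alternative settings (squares). Irs3, Irs1, Slc2a4 and Grb14 stay above 0 and Insr and Pik3r1 below 0 in all 18, while Irs2, Tbc1d4, Akt2 and Foxo1 cross 0.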

How the data were processed

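RNA of 8 fat pads (100 ng each) was measured on 8 arrays. The deposited values are log2 RMA values that the authors made with the Expression Console software, per the labels' description field. RMA corrects background, equalises the arrays' distributions and summarises probes, so it compresses low signals and removes shifts common to an array. The submitters' processing notes also list Partek 6.6, without saying what it did. Neither an annotation version nor a genome build is stated in those notes or labels.

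Of 41345 probe sets, 23521 had 1 gene symbol in GEO's platform annotation, 1814 several and 16010 none, and 23328 of the named ones matched RefSeq (GRCm38.p6) by Entrez identifier. The probe set with the highest mean was kept for each gene, and the dimmest 33.3% of genes (log2 5.82 and below) were left out. Groups came from the sample titles, 4 mice each. The test was limma 3.58.1 under R 4.3.3 (lmFit, eBayes, two-sided, no covariate, Benjamini-Hochberg over 14786 genes), tested on simulated data. Figures used matplotlib 3.10.9. The labels call the replicates biological.

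The members and lists were chosen with earlier results of these data known. Named genes were the members, the 2 lowest unadjusted p in each pathway list, the 5 genes closest to Slc2a4 and Adipoq, Plin1, Gpx5, Slc2a1 and Fkbp5; Mef2a, Sesn3, Klf15, Sort1, Igf1r and Ptprf were added after their values were seen. Alternatives changed the filter, normalization, centring, probe set, variance model, weights and block, added the epididymis score as a covariate, and left out single mice or the 3 arrays with an epididymis score over 1.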

Additional observations from a re-analysis of the deposited data

Results flagged for a closer look

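Of 84 sets of 4 values examined for the named genes, 3 held a mouse far from the other 3 of its group, where chance gives about 1 in 20. Stx4a read 8.73 in prednisolone mouse 1, and at most 8.49 in the other prednisolone mice. Igf1r, the receptor for insulin-like growth factor, read 10.03 in prednisolone mouse 2, the mouse with the highest epididymis score, and at most 7.94 in the other prednisolone mice. Plxna2 read 9.23 in vehicle mouse 2, and at most 8.73 in the other vehicle mice. No value of the 10 members was this far from its group.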

How the results depend on the processing

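Under 18 alternatives, 0 members and 0 of the other pathway genes passed the adjusted threshold. Over all genes the count was 0 under 17 of them and 1 with the epididymis score as a covariate, the imprinted gene Peg10; the cause was not tested. Of 755 gene values recomputed, 725 kept their sign and 30 turned it. Irs2 turned to -0.078 with adipocyte centring, to -0.0036 with the epididymis covariate and ran from -0.14 to 0.14 with 1 mouse left out. Akt2 turned to 0.0105 with array weights (left-out range -0.084 to 0.072), and Tbc1d4 to 0.0025 with repeated quantile normalization and to 0.0034 with weights (-0.11 to 0.077). Foxo1 ran from -0.21 to 0.077 and Igf1r from -0.67 to 0.094 with 1 mouse left out. Without the 3 mice of high epididymis score Plin1 turned to -0.028, Gpx5 to 0.42, Slc2a1 to 0.014 and Sort1 to 0.17. Plin1 was -0.013 with adipocyte centring (left-out range -0.0043 to 0.18), and Sort1 0.12 with all its probe sets averaged (-0.15 to 0.054). The causes were not tested. The count of genes at an unadjusted p under 0.05 ran from 436 to 1980 over the alternatives. The labels do not say whether the replicate numbers pair the mice. Deviations of same-numbered mice from their group means correlated at -0.19, -0.58, 0.13 and -0.28, which does not settle it. With the replicate numbers as a block 0 genes passed, and Irs3 stood at 0.75 ± 0.27. An unadjusted limma p under 0.05 was then found in 504 genes, against 842 without the block. Only 4 arrays per group limit what could be detected, and values near the filter of 5.82 are compressed.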

Other observations

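Ptprf and Grb7, both in the list of genes that restrain the receptor, were highest in the 3 mice with an epididymis score over 1. Ptprf, a receptor tyrosine phosphatase, read 8.96 in prednisolone mouse 2 and 9.92 and 9.23 in vehicle mice 1 and 4, and at most 8.70 in the other 5 mice. Grb7, an adaptor related to Grb14, read 7.57 in prednisolone mouse 2, 8.58 and 7.95 in vehicle mice 1 and 4, and at most 6.72 elsewhere. Igf1r was also highest in these mice, with 10.03 in prednisolone mouse 2, 8.97 and 8.75 in vehicle mice 1 and 4, and at most 8.37 elsewhere. Other pathway genes, such as Slc2a1 and Pik3r3, were highest in these mice too. Slc2a1 read 8.64 in prednisolone mouse 2, 8.69 and 8.63 in vehicle mice 1 and 4, and at most 8.39 elsewhere. These genes are examples, and the share of all tested genes that were highest in these mice was not counted. Gpx5, an epididymal glutathione peroxidase, read 13.81 in prednisolone mouse 2 and 13.78 and 13.61 in vehicle mice 1 and 4, but also 11.27 in prednisolone mouse 1 and 8.69 in vehicle mouse 3, against 4.19 to 4.76 in the other 3. Prednisolone mouse 1, with these intermediate Gpx5 transcripts, read 8.40 for Ptprf, 6.54 for Grb7 and 7.89 for Igf1r, within the range of the mice of low score.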
